A study of Mus musculus with 6 samples.

Results

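Small nucleolar RNAs (snoRNAs) and the related RNAs of Cajal bodies were followed on 6 arrays of mouse N2A neuroblastoma cells, a line of sympathoadrenal origin. They were chosen by name, as the genes whose array probe carries exactly 1 symbol that begins with Snord, Snora or Scarna. This gave 54 genes of the 19938 measured by a probe with 1 symbol, namely 31 Snord, 20 Snora and 3 Scarna genes. The rule uses names alone, except that of several probes for a gene the brightest over the 6 arrays was kept, and it was set with earlier results of these data known. The first group, called Pbcas4 shRNA, was 3 arrays of cells transfected with a short hairpin construct against Pbcas4, a transcribed unitary pseudogene. The second, called scramble, was 3 arrays of cells transfected with a control hairpin. Both groups were cells of the same line, transfected transiently with Lipofectamine Plus and collected 72 h later, and 200 ng of total RNA was labelled for each Affymetrix Mouse Gene 1.0 ST array. No selection of transfected cells is described, and in RNA pooled from a culture, fewer cells with an RNA and less of it per cell cannot be told apart. The probe annotation names no Pbcas4, and the knockdown itself was not analysed here.

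SnoRNAs are short guides of the nucleolus. Those of the box C/D class (Snord) pair with ribosomal RNA and direct fibrillarin to methylate the ribose of the paired nucleotide, while those of the box H/ACA class (Snora) direct dyskerin to turn uridine into pseudouridine. A few members of each class instead take part in cutting the ribosomal precursor, and the small Cajal body RNAs (Scarna) guide the same reactions on spliceosomal RNAs. In mammals nearly all are cut from introns of host genes, many of which encode ribosomal proteins or long noncoding RNAs. A probe within such an intron can therefore also detect the unspliced host transcript, and short RNAs are kept poorly by silica columns of the kind used here for extraction. The deposited values are on a log2 scale with 1 value for each probe on each array, so a difference of 1 is a doubling, and a level can be compared between arrays but not between probes. Every difference below is the mean of the Pbcas4 shRNA arrays minus the mean of the scramble arrays.

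The arrays did not fall cleanly into their groups. Over all probes, scramble replicate 1 correlated at 0.990 to 0.993 with the Pbcas4 shRNA arrays and at 0.987 and 0.988 with the other scramble arrays. For mitosis genes, its mean level of 11.84 lay with the Pbcas4 shRNA arrays (11.98, 11.85 and 11.80) and not with the other scramble arrays (11.05 and 10.66). The medians of the snoRNA classes, their counts without overlap, and the members whose overlap rests on this array, are therefore also given without it. Counts of higher and lower means are for all 6 arrays. Of the 13 sympathoadrenal markers, 12 were measured, and their mean was 11.54 to 11.68 in Pbcas4 shRNA arrays and 11.94 to 12.18 in scramble arrays. Their median difference was -0.26, with 11 of the 12 at a lower mean. The means of the fibroblast, macrophage, epithelial and glial marker lists were between 6.47 and 7.90 in Pbcas4 shRNA arrays and between 6.50 and 7.98 in scramble arrays. The part of these shifts in the snoRNA values was not tested.

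No snoRNA or Cajal body RNA passed a test between the groups. The limma fit called 0 of the 54 at an adjusted p under 0.05 with a difference over 0.5, and it called 0.0% of all genes. The lowest adjusted p among the 54 was 0.625. The standard error of the difference had a median of 0.198 over the members and of 0.114 over all genes. Small changes of the members could therefore be missed. At an unadjusted p under 0.05, 0 members were higher and 0 were lower, against 6.22% and 5.46% of all genes. In 0 members did all 3 Pbcas4 shRNA arrays lie above all 3 scramble arrays, and in 0 did they all lie below, against 9.13% and 7.63% of all genes. With each array centred on its median these counts stayed at 0 for the members, while the shares of all genes were 7.69% and 3.68% at that p and 12.2% and 4.7% without overlap. A difference over 0.5 in size was found in 1 member, Snord52, which is a share of members below the 5.48% of all genes. An exact permutation test of 3 arrays against 3 cannot give a p under 0.1, and the lowest exact p among the members was 0.2. The means were higher in Pbcas4 shRNA arrays for 32 members and lower for 22, with a median difference of 0.034. Over all genes 10171 had a higher mean and the median was 0.003.

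Members varied more between arrays of the same group than most genes did. The standard deviation (SD) within groups had a median of 0.289 over the 54 members and of 0.137 over all genes, and the median member stood at percentile 89.7 of that spread. It was 0.312 for Snord, 0.242 for Snora and 0.302 for Scarna. The shifts were shared, since members went up and down together. Across the 6 arrays the correlation between a pair of members had a median of 0.61, with 1245 of 1431 pairs above 0. The median was 0.72 for pairs of Snord and 0.52 for pairs of Snora. The points of these correlations are the same 6 arrays, so the values only describe them.

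**Figure D1:**
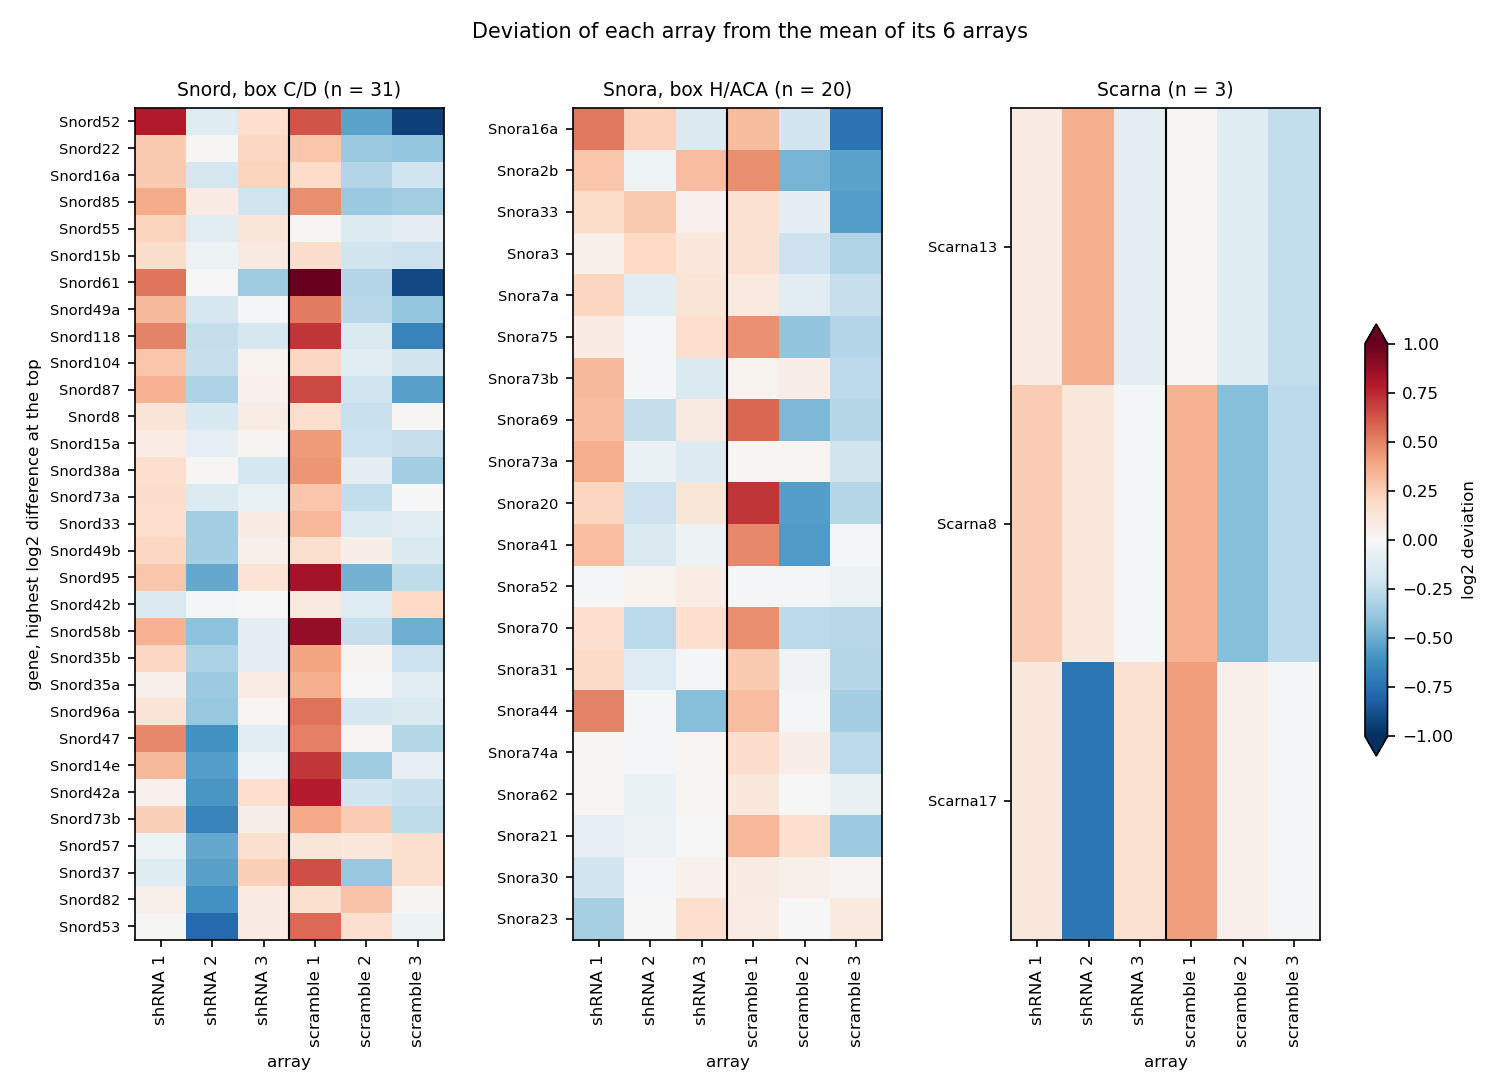
Heat map of the 31 Snord, 20 Snora and 3 Scarna genes (rows) on 3 Pbcas4 shRNA and 3 scramble arrays (columns). Colour gives the log2 deviation of each array from the mean of the gene's 6 arrays. Scramble 1 is red in most rows, and shRNA 2 is blue in most Snord rows but pale in most Snora rows.

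Much of the shared movement lay in scramble replicate 1. It was the highest of the 6 arrays for 35 of the 54 members (64.8%) and the lowest for 0, while it was the highest for 10.8% of all genes. Scramble replicate 3 was the lowest array for 24 members (44.4%), against 17.8% of all genes. Compared with the mean of the other scramble arrays, scramble replicate 1 was higher for 53 of 54 members, by a median of 0.48. Over all genes the same median was -0.04. For Snord the median was 0.64 and for Snora 0.42. The highest single value was 1.61.

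Without scramble replicate 1, the 3 Pbcas4 shRNA arrays lay above both remaining scramble arrays for 17 members and below them for 0, against 20.3% and 19.7% of all genes. These 17 were 7 Snord, 8 Snora and 2 Scarna genes. Of the 54 members, 11 then had an unadjusted p under 0.05 with a higher mean and 0 with a lower one, against 11.4% and 8.03% of all genes, and 0 passed after adjustment. The median difference of the members became 0.187 and that of all genes -0.016. Leaving out scramble replicate 3 instead moved the counts the other way. There were then 0 members above and 6 below the scramble arrays, against 12.8% and 9.86% of all genes. The direction of the snoRNAs as a group thus differed with the scramble array left out.

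No source says what the replicate numbers stand for. Deviations from the group means correlated across probes at 0.291, 0.137 and 0.103 between same-numbered arrays, but at 0.199 between Pbcas4 shRNA replicate 2 and scramble replicate 3. Taken in pairs, Pbcas4 shRNA minus scramble had a median over the members of -0.17 in pair 1, -0.01 in pair 2 and 0.22 in pair 3. The values were lower in Pbcas4 shRNA for 40 of 54 members in pair 1, for 29 in pair 2 and for 5 in pair 3. With the replicate number as a block, 2 members (Snora16a and Snord52) were higher at an unadjusted p under 0.05, against 7.2% of all genes, and 0 were called.

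The box C/D snoRNAs were split in direction when all 6 arrays were used. Of 31 Snord genes, 14 had a higher and 17 a lower mean in Pbcas4 shRNA arrays, 0 were called, and their differences ran from -0.46 to 0.56 around a median of -0.058. The mean over the 31 was 9.43, 8.91 and 9.24 in Pbcas4 shRNA replicates 1, 2 and 3, against 9.65, 9.05 and 8.98 in the scramble replicates. The groups overlapped, since Pbcas4 shRNA replicate 2 was the lowest and scramble replicate 1 the highest of the 6. Without scramble replicate 1 the median of the class was 0.126, so the direction of the class differed with that array. Of the 31, 7 then lay wholly above the scramble arrays and 0 wholly below, against 20.3% and 19.7% of all genes. Pbcas4 shRNA replicate 2 was the lowest of the 6 arrays for 15 of 31 Snord genes and for 0 of 20 Snora genes. It lay below the mean of the other Pbcas4 shRNA arrays for 29 Snord genes, by a median of 0.43, and for 14 Snora genes, where the median difference was -0.09.

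Of the members described in the text, the brightest probes of each class and all Scarna genes were taken by rule, and the others were chosen after their values were seen, as were the further genes named, other than core proteins. Snord52 showed the highest difference of the class. It is a methylation guide that lies in 1110038B12Rik, a long noncoding RNA gene without a probe of its own here. Its level was 8.87, 7.95 and 8.24 in Pbcas4 shRNA arrays and 8.70, 7.54 and 7.14 in scramble arrays. Both groups were highest in replicate 1, and they overlapped through scramble replicate 1 alone. The difference was 0.56 with a standard error of 0.43 (adjusted p = 0.757, limma), and 1.01 without scramble replicate 1. Snord22, in human cells known as U22, a snoRNA needed for maturation of 18S rRNA, is held by Snhg1. It was at 9.12, 8.87 and 9.07 in Pbcas4 shRNA arrays and at 9.14, 8.49 and 8.47 in scramble arrays. Scramble replicate 1 alone reached the Pbcas4 shRNA values, and the difference of 0.32 (standard error 0.20, adjusted p = 0.667) was 0.54 without it.

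Snord53 was at the other end. Its level was 11.38, 10.59 and 11.45 in Pbcas4 shRNA arrays and 11.94, 11.54 and 11.32 in scramble arrays, a difference of -0.46 (standard error 0.27, adjusted p = 0.636). Pbcas4 shRNA replicate 2 was the low array, and the remaining 2 lay within the range of the scramble arrays. Without that array the difference was -0.19. Snord82, 1 of the guides within the nucleolin gene, had the same pattern, at 11.04, 10.39 and 11.07 in Pbcas4 shRNA arrays and at 11.15, 11.28 and 11.02 in scramble arrays. Its difference was -0.32 (standard error 0.20, adjusted p = 0.671), with the groups again overlapping through Pbcas4 shRNA replicates 1 and 3, and was -0.09 without replicate 2. Snord57, from an intron of Nop56, has the brightest probe of the class. It was at 12.97, 12.51 and 13.18 in Pbcas4 shRNA arrays and between 13.12 and 13.19 in scramble arrays (difference -0.26, standard error 0.17, adjusted p = 0.695, and -0.07 without Pbcas4 shRNA replicate 2). The probe with the next highest mean was that of Snord16a, at 12.92, 12.49 and 12.88 in Pbcas4 shRNA arrays and 12.84, 12.37 and 12.46 in scramble arrays. Here replicate 2 was low in both groups, and the difference was 0.20 (standard error 0.17, adjusted p = 0.791). The groups of Snord16a overlapped through scramble replicate 1 alone, without which the difference was 0.35.

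Among the C/D RNAs that serve in cutting of the ribosomal precursor, Snord118 (U8), which acts on the large subunit RNAs in vertebrates, was the 1 member that lay in no host gene. Its level of 8.15, 7.42 and 7.49 in Pbcas4 shRNA arrays and 8.37, 7.51 and 6.99 in scramble arrays gave a difference of 0.06. The sign turned without Pbcas4 shRNA replicate 1 (-0.17) or without scramble replicate 3 (-0.25). Snord14e, of the U14 family that acts on the small subunit RNA and in an intron of Hspa8, had a difference of -0.18 (standard error 0.33). Without scramble replicate 1 it was 0.13. Snord47, held by the growth arrest gene Gas5, was at 12.01, 10.93 and 11.42 in Pbcas4 shRNA arrays and 12.04, 11.55 and 11.25 in scramble arrays. Its groups overlapped almost wholly and the difference of -0.16 was positive without Pbcas4 shRNA replicate 2 (0.10) or scramble replicate 1 (0.05).

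**Figure D2:**
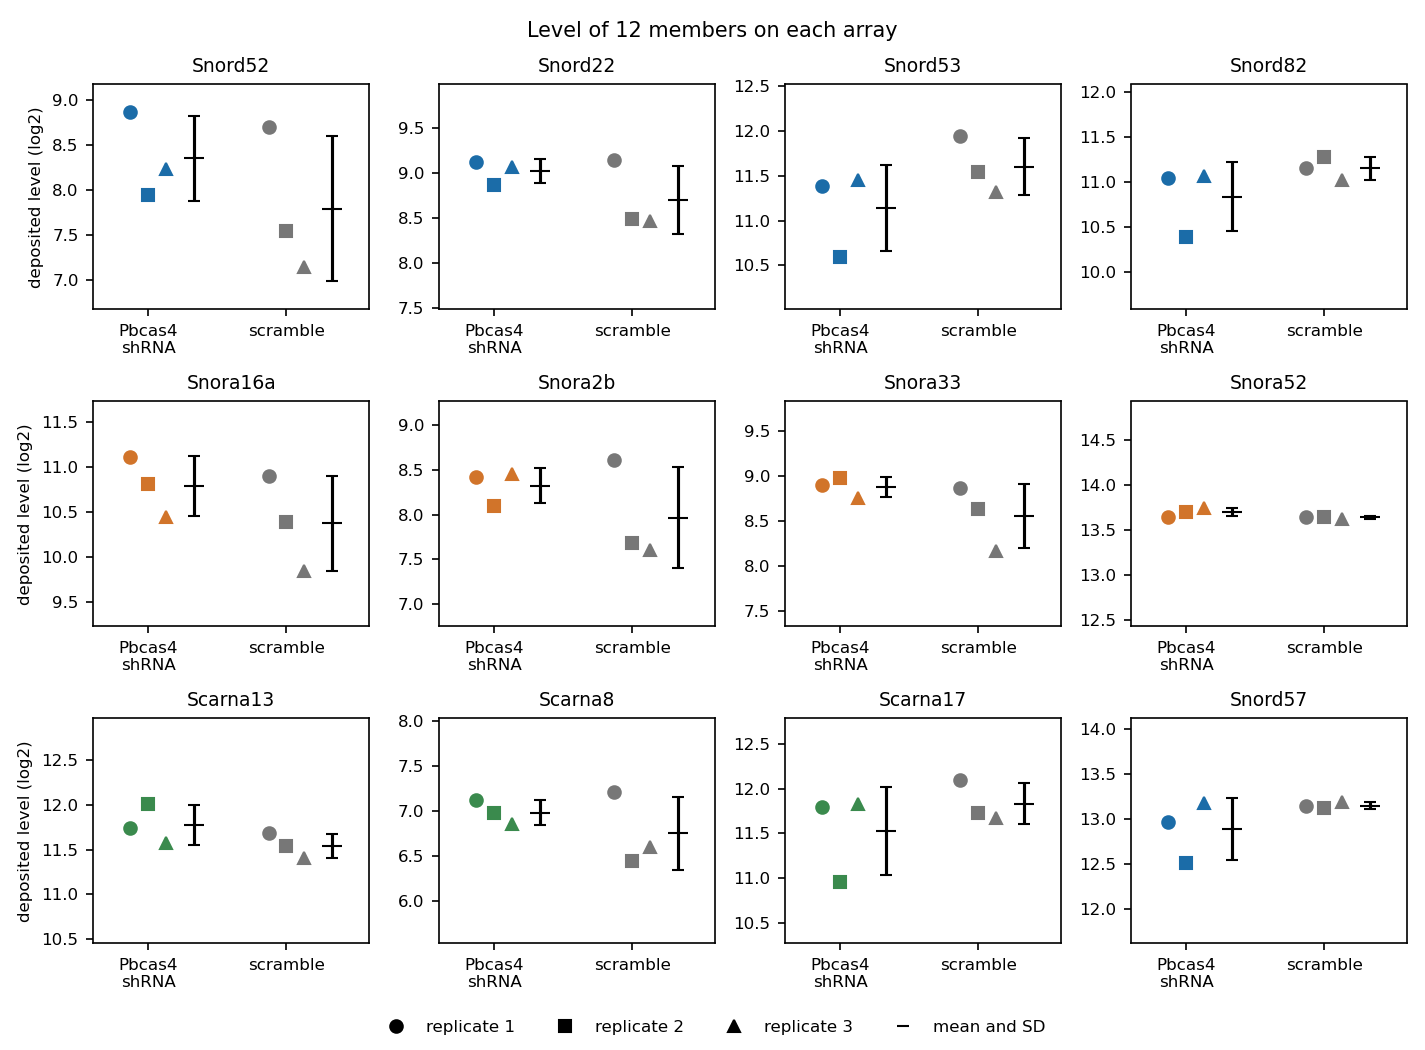
Deposited log2 level of 12 members in Pbcas4 shRNA (coloured, left) and scramble (grey, right) arrays, with a marker for each replicate number and bars for mean and SD (n = 3). Every panel spans the same 2.5 log2 units. The groups overlap in all 12 panels, and scramble replicate 1 (grey circle) is at or near the level of the Pbcas4 shRNA arrays in Snord52, Snord22, Snora2b and Scarna8.

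The box H/ACA snoRNAs leaned towards higher means with smaller differences. Of 20 Snora genes, 16 had a higher and 4 a lower mean in Pbcas4 shRNA arrays, and 0 were called. Their differences ran from -0.12 to 0.41 around a median of 0.076, or 0.223 without scramble replicate 1. The mean over the 20 was 9.49, 9.30 and 9.36 in Pbcas4 shRNA arrays and 9.60, 9.19 and 9.07 in scramble arrays. Here too the highest of the 6 values was that of scramble replicate 1, while the other scramble arrays were below all Pbcas4 shRNA arrays.

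Snora16a, cut from Snhg12, had the highest difference of the class. It was at 11.11, 10.81 and 10.44 in Pbcas4 shRNA arrays and at 10.90, 10.39 and 9.84 in scramble arrays, and the Pbcas4 shRNA value was the higher in all 3 pairs (by 0.21, 0.42 and 0.59). Replicate 1 was the highest and replicate 3 the lowest in both groups, and the groups overlapped. The difference was 0.41 with a standard error of 0.29 (adjusted p = 0.724), and with the replicate block the standard error was 0.11 (adjusted p = 0.288). Without scramble replicate 1 the difference was 0.67 and the groups did not overlap. Snora44 lies in the same host gene and had a difference of 0.03 (standard error 0.26, adjusted p = 0.992).

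Snora2b, within Kansl2, was at 8.42, 8.10 and 8.45 in Pbcas4 shRNA arrays and at 8.61, 7.68 and 7.61 in scramble arrays. Scramble replicate 1 was the highest of all 6 arrays. The difference was 0.36 (standard error 0.27, adjusted p = 0.755) and 0.68 without that array. Snora33, within Rps12, had the lowest p of all members. Its level of 8.90, 8.98 and 8.76 in Pbcas4 shRNA arrays and of 8.87, 8.63 and 8.17 in scramble arrays gave a difference of 0.32 (standard error 0.18, adjusted p = 0.625), and its groups overlapped through scramble replicate 1 alone, without which the difference was 0.48. Snora3, within Rpl27a, behaved alike, with 10.69 to 10.84 in Pbcas4 shRNA arrays, 10.79 in scramble replicate 1 and 10.43 and 10.34 in the other scramble arrays (difference 0.23, standard error 0.13, and 0.37 without scramble replicate 1).

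The H/ACA probe with the highest mean, Snora52, barely moved. It gave 13.65, 13.70 and 13.74 in Pbcas4 shRNA arrays and 13.65, 13.65 and 13.62 in scramble arrays, a difference of 0.06 (standard error 0.08, adjusted p = 0.901) and a range over the 6 arrays of 0.12. Its probe lies near the top of the array's scale, where the highest values were 14.83 to 14.97, and whether it can still report a change there was not tested. The next, Snora7a, was at 12.14, 11.82 and 12.05 in Pbcas4 shRNA arrays and 12.02, 11.81 and 11.69 in scramble arrays (difference 0.16, standard error 0.13). Its groups overlapped through scramble replicate 1 alone, without which the difference was 0.25. Snora73a and Snora73b, near-identical copies of U17, an H/ACA RNA that acts in precursor cleavage, differed by 0.10 and 0.11 between the groups. Their probes may share signal, as may those of the pairs Snord15a and Snord15b, Snord35a and Snord35b, Snord42a and Snord42b, and Snord73a and Snord73b.

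**Figure D3:**
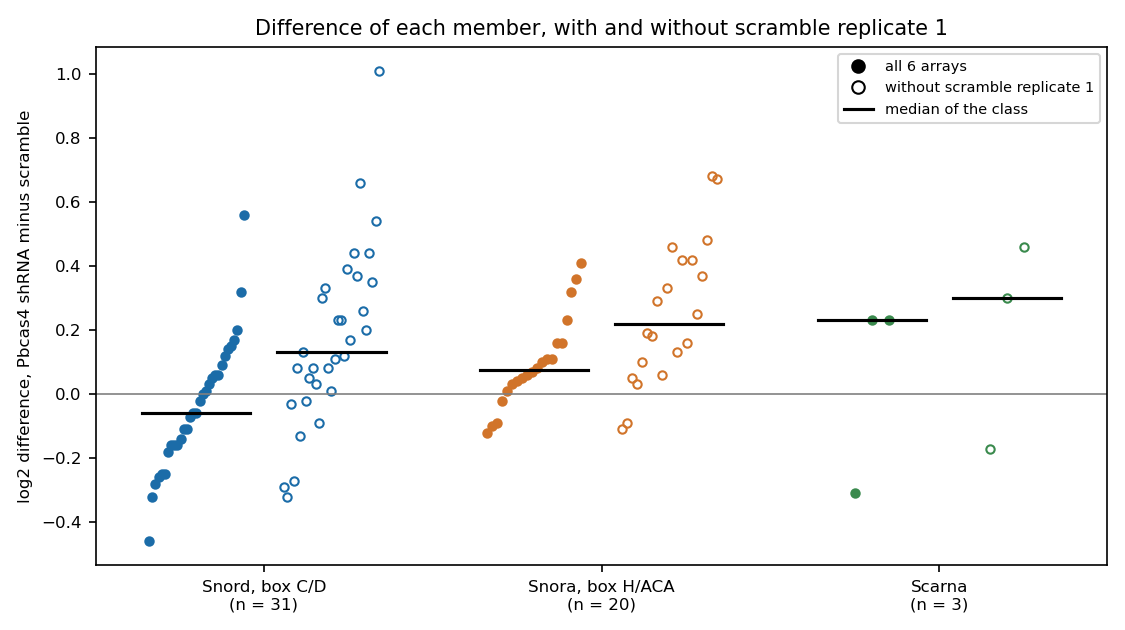
Log2 difference, Pbcas4 shRNA minus scramble, of each Snord (n = 31), Snora (n = 20) and Scarna (n = 3) gene, with all 6 arrays (filled) and without scramble replicate 1 (open). Lines are class medians, which stand at -0.058, 0.076 and 0.229 with all arrays and at 0.126, 0.223 and 0.296 without that array.

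The 3 Cajal body RNAs did not move together. Scarna13, in human cells a tandem H/ACA guide known as U93, was at 11.74, 12.01 and 11.57 in Pbcas4 shRNA arrays and at 11.68, 11.54 and 11.41 in scramble arrays. It was higher in all 3 pairs, but Pbcas4 shRNA replicate 3 fell below scramble replicate 1 (difference 0.23, standard error 0.14, adjusted p = 0.650, and 0.30 without that scramble array). Scarna8, the H/ACA guide U92 of human cells, was at 7.12, 6.97 and 6.85 in Pbcas4 shRNA arrays and 7.21, 6.44 and 6.60 in scramble arrays. Scramble replicate 1 again exceeded all the others, and the difference was 0.23 (standard error 0.21, adjusted p = 0.808), or 0.46 without it. Scarna17 was at 11.79, 10.96 and 11.83 in Pbcas4 shRNA arrays and 12.10, 11.73 and 11.67 in scramble arrays. Its difference of -0.31 (standard error 0.26, adjusted p = 0.789) came with the same low Pbcas4 shRNA replicate 2 as in Snord53 and Snord82, and was -0.02 without that array.

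The length of the RNA was set beside its spread. The classes differ in length. By RefSeq annotation the Snord genes had a median length of 68.0 bases (45 to 148) and the Snora genes one of 125.0 bases (61 to 205). Over the 54 members, length correlated with the SD within groups at r = -0.43 (Spearman -0.45), and with the deviation of Pbcas4 shRNA replicate 2 from the other Pbcas4 shRNA arrays at r = 0.59 (Spearman 0.52). Pooled over the classes, shorter RNAs thus tended to the larger spread and the lower values in that array. Within the classes the first correlation was -0.25 for Snord and -0.40 for Snora (Spearman -0.33 and -0.39). The second was weaker than over all members, at 0.26 and 0.24 (Spearman 0.17 and 0.13). The excess of scramble replicate 1 over the other scramble arrays correlated with length at r = -0.36 over all members, -0.08 in Snord and -0.60 in Snora. Genes are not independent replicates, all points share the same arrays, and the part of RNA length or its recovery in the differences was not tested.

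Host genes gave a second measurement near the same loci. By gene positions in RefSeq, 53 of the 54 members lay within the span of another gene. There were 43 distinct hosts, 31 coding for protein and 12 for long noncoding RNA, and 16 of them were ribosomal protein genes that held 21 members. The starts of 5 hosts are shown because their members carried the highest or lowest differences, the brightest H/ACA probe or an opposed pair. Each runs from 10 bases before to 20 bases from the RefSeq start on, on GRCm38.p6, with capitals for a run of C and T that opens with C within 5 bases of the start and is at least 5 bases long. Such a run resembles the terminal oligopyrimidine tract of growth-regulated messengers.
1110038B12Rik (Snord52; chr17:34952449-34952478, minus strand): gcacacgggtCTCTTTgtgcacccgcccac
Snhg12 (Snora16a and Snora44; chr4:132308668-132308697, plus strand): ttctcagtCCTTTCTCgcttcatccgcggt
Rplp2 (Snora52; chr7:141447641-141447670, plus strand): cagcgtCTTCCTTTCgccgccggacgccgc
Ncl (Snora75 and Snord82; chr1:86359436-86359465, minus strand): cggggacggacgcgagctctggttggtgga
Wdr43 (Snord53; chr17:71616205-71616234, plus strand): gcgccggtgcgcctgcgcccgggcgaacac
A run of this kind, read on the strand of the gene, was present at a start of 15 of the 32 hosts with a RefSeq window (46.9%) and of 5718 of 27025 genes with a window (21.2%). It was present for 4 of 11 ribosomal protein hosts (36.4%) and 11 of 21 other hosts (52.4%). A run that opens farther from the annotated start was not counted. The runs describe these letters only.

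SnoRNA and host differences did not run in parallel. For 28 members the host had a probe with 1 symbol, which gave 24 measured hosts. Across these pairs the differences of RNA and host had r = 0.17 (Spearman -0.02), as a description over genes on the same arrays, and 16 of 28 had the same sign. The hosts were steadier than the RNAs they hold, with a median SD within groups of 0.081 and a median difference of 0.03 (-0.13 to 1.11). Of the hosts, 3 lay wholly above and 1 wholly below the scramble arrays, against 9.13% and 7.63% of all genes, and 0 were called.

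Some pairs ran in opposite directions. Wdr43, a factor of small subunit assembly, averaged 12.06 ± 0.07 in Pbcas4 shRNA arrays and 11.87 ± 0.13 in scramble arrays (SD, n = 3 each), with no overlap (difference 0.19, standard error 0.10, adjusted p = 0.594), while Snord53 within it had a difference of -0.46. Nucleolin (Ncl), a main nucleolar protein, had a difference of 0.14 (standard error 0.09). Of the guides within it, Snora75 (U23) was at 7.85, 7.75 and 7.93 in Pbcas4 shRNA arrays and at 8.22, 7.37 and 7.47 in scramble arrays, a difference of 0.16 that was 0.42 without scramble replicate 1 and -0.004 without scramble replicate 2, against -0.32 for Snord82. The 2 hosts with the highest differences held members with smaller differences. Haus6, of the augmin complex of the spindle, was at 10.98, 10.42 and 10.51 in Pbcas4 shRNA arrays and at 10.57, 9.31 and 8.69 in scramble arrays (difference 1.11, adjusted p = 0.485), while Scarna8 within it had 0.23. Rbmx, a nuclear RNA-binding protein, had a difference of 0.88 (adjusted p = 0.437) and Snord61 within it one of 0.12. Without scramble replicate 1 these were 1.15 and 0.66. The probe of Snord61 was dim, at percentile 7.71 of all genes by level, and its range over the 6 arrays was 1.91 (standard error of the difference 0.49). There were 10 hosts with 2 members each. Both members had the same sign in 8 of them and opposite signs in 2, namely Ncl and 2410006H16Rik.

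**Figure D4:**
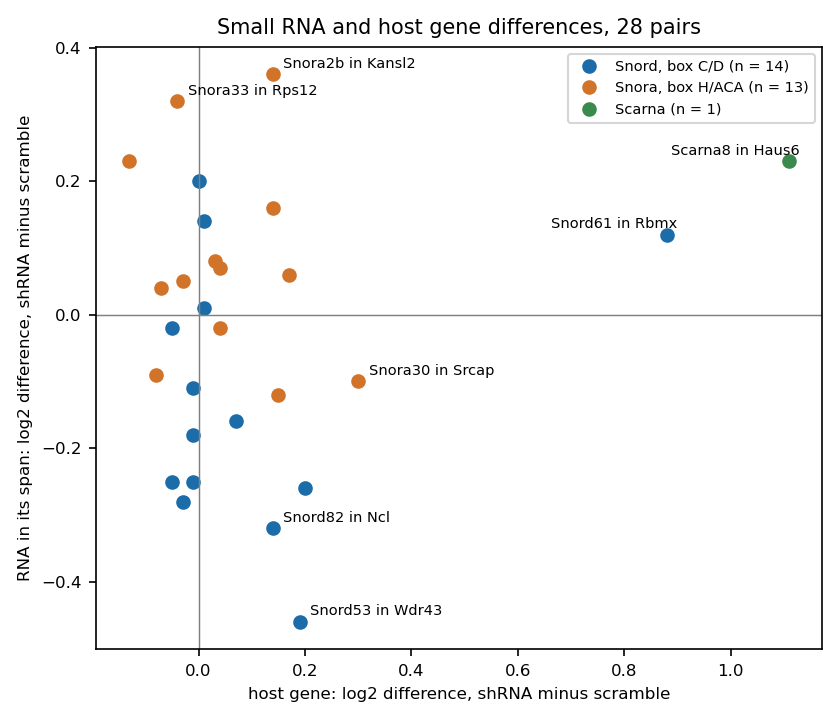
Log2 difference, Pbcas4 shRNA minus scramble, of 28 snoRNAs and Cajal body RNAs (y axis) against that of the gene that holds them (x axis), coloured by class. Most hosts lie between -0.13 and 0.30, whatever the value of the RNA within, and Haus6 and Rbmx stand apart at 1.11 and 0.88.

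Of the 8 measured core proteins that bind these RNAs, 3 lay wholly above the scramble arrays, beside 9.13% of all genes, and 8 did so without scramble replicate 1, beside 20.3%. The mitosis list moved the same way, with 17 of 17 higher, and its part in these values was not tested. All 4 measured core proteins of H/ACA particles had a higher mean in Pbcas4 shRNA arrays, with a median difference of 0.53, or 0.72 without scramble replicate 1, and 0 were called. Gar1, a core subunit, was at 12.16, 11.84 and 11.94 in Pbcas4 shRNA arrays and 11.73, 10.91 and 11.03 in scramble arrays, so that the groups did not overlap (difference 0.76, standard error 0.22, adjusted p = 0.401, and 1.01 without scramble replicate 1). Nhp2 was at 12.06, 11.87 and 11.76 in Pbcas4 shRNA arrays and 11.67, 11.16 and 10.80 in scramble arrays, also without overlap (difference 0.69, standard error 0.22, adjusted p = 0.424). Dkc1, the pseudouridine synthase dyskerin, had a difference of 0.38 and Nop10 one of 0.24, both with overlap.

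Of the 5 C/D core proteins 4 were measured, with a median difference of 0.23, or 0.34 without scramble replicate 1, and 0 called. Nop58 was at 11.90, 11.77 and 11.91 in Pbcas4 shRNA arrays and 11.71, 11.39 and 11.45 in scramble arrays (difference 0.34, standard error 0.11, adjusted p = 0.431), and was the 1 of the 4 without overlap. Fbl, the methyltransferase fibrillarin, had 0.25, Snu13 had 0.22 and Nop56 had 0.20. Scramble replicate 1 was the highest of the scramble arrays for all 8 core proteins, as it was for most of the RNAs, but it exceeded every Pbcas4 shRNA array for Nop10 alone.

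**Figure D5:**
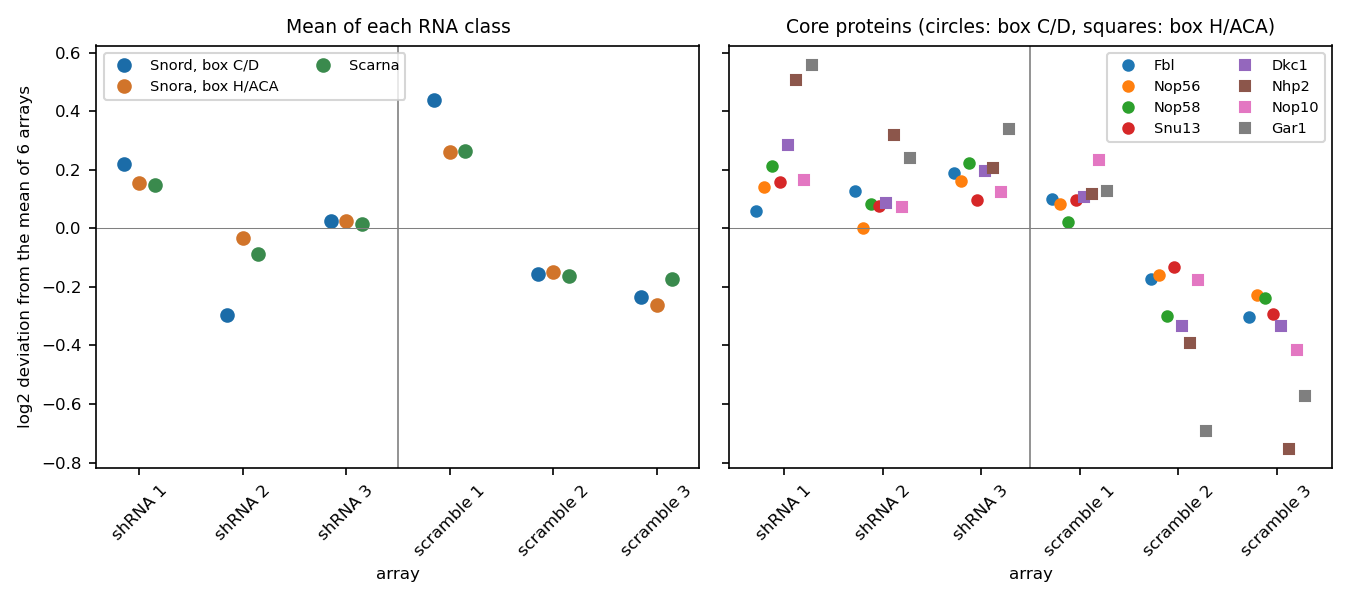
Log2 deviation of each array from the mean of 6 arrays, for the mean level of each RNA class (left) and for the 8 core proteins (right). Scramble 1 is the highest array for all 3 classes, while for the core proteins it lies above the other scramble arrays and, except for Nop10, below at least 1 Pbcas4 shRNA array.

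Other genes of the pathway are given by list, with 0 called in each. Of 10 assembly factors 8 had a higher mean and 4 did not overlap (median 0.18), the AAA ATPase Ruvbl2 with 0.55 (standard error 0.13, adjusted p = 0.363) among them. Of 11 Cajal body proteins 10 had a higher mean and 6 did not overlap (median 0.37, or 0.46 without scramble replicate 1), and coilin (Coil), the scaffold of the Cajal body, was at 9.87, 9.94 and 9.90 in Pbcas4 shRNA arrays and 9.57, 9.30 and 9.36 in scramble arrays (difference 0.49, standard error 0.10, adjusted p = 0.348). Of 24 ribosome biogenesis factors 21 had a higher mean and 8 did not overlap (median 0.30, or 0.42 without that array). These shares stand beside 9.13% of all genes. The median of the mitosis list was 0.73. The genes for decay and trimming had a median of 0.22, with 11 of 13 higher and 3 wholly above the scramble arrays, beside the same 9.13%.

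Other small noncoding RNAs were mixed. Of 21 listed, 9 were measured, 4 with a higher and 5 with a lower mean. Of these 9, 0 were without overlap, beside 9.13% of all genes wholly above and 7.63% wholly below. So few genes cannot be set apart from those shares. Their SD within groups had a median of 0.24 and ran from 0.04 to 0.47. Scramble replicate 1 was the highest array for 0 of the 9, scramble replicate 3 the highest for 3 and the lowest for 3. Rnu3a, the box C/D snoRNA U3 that the naming rule does not reach, was at 8.96, 8.55 and 8.51 in Pbcas4 shRNA arrays and 8.83, 8.25 and 7.94 in scramble arrays (difference 0.34, standard error 0.24, or 0.58 without scramble replicate 1). It was highest in replicate 1 of each group, as Snora16a was. Rny1, a Y RNA, was at 10.43, 9.98 and 10.12 in Pbcas4 shRNA arrays and 10.28, 10.29 and 9.20 in scramble arrays, with scramble replicate 3 low. Terc, the telomerase RNA with an H/ACA domain, was at 12.92, 13.24 and 13.31 in Pbcas4 shRNA arrays and 12.99, 13.25 and 13.29 in scramble arrays. In it, and in Rmrp, the RNA of RNase MRP, replicate 1 was the low array of each group. Rmrp averaged 12.64 ± 0.18 in Pbcas4 shRNA arrays and 12.83 ± 0.29 in scramble arrays (SD, n = 3 each). Of the long noncoding snoRNA hosts 4 of 14 were measured. Snhg5 was the 1 without overlap, wholly above, beside 9.13% of all genes. It had a difference of 0.53 (standard error 0.17, adjusted p = 0.429), while Gas5 had 0.07.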

How the data were processed

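The table analysed held log2 values deposited by the authors, 1 for each of 35556 probes on 6 arrays (3 Pbcas4 shRNA and 3 scramble), summarized and normalized with a method that is not given in the sources used here. Each p measures the spread between transfections in triplicate, and precision is limited by there being 3 arrays in each group.

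No further normalization was applied. Probes were named from the array's annotation, and 41 probes that pair a snoRNA symbol with other symbols were left out. For 6 members with 2 probes the one with the higher mean was used. A linear model with a term for the construct was fitted to every probe with limma 3.58.1 (R 4.3.3), whose moderated two-sided p was adjusted by Benjamini-Hochberg over all probes. Called genes had an adjusted p under 0.05 and differed by over 0.5 between group means. The script was tested on simulated data with known changes placed in probes drawn from the whole array. The call recovered 8% of the changes of 0.5 in size, 60% of those of 1 and 87.6% of those of 2. Single genes also had an exact permutation test (scipy 1.17.1). Figures were drawn with matplotlib 3.10.9.

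The members and gene lists were chosen with earlier results of these data known. The genes to be named were, in each of Snord and Snora, the 2 with the highest mean and up to 4 in each direction without overlap between groups, then every Scarna, members past the call or at an unadjusted p under 0.01, members of hosts with at least 3, and the core proteins. No member met the rules on overlap, call, p or shared host.

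The main fit and the permutation test treated the arrays as unpaired, and replicate numbers were a block in an alternative fit only. After removal of group means, arrays of the same number each correlated at over 0.1 across probes, which was the reason for that fit. Pbcas4 shRNA replicate 2 nevertheless correlated more with scramble replicate 3 than with its own number, and the labels do not explain the numbers. Hosts were assigned by span in RefSeq (GRCm38.p6), whose gene table gives no strand, so that the strand of a host was not checked. Promoter windows are from RefSeq on the same build. Sequences of the snoRNAs were not analysed here. Alternatives were quantile normalization, array median centring, a trended and robust variance, array weights, the replicate block, no size criterion, removal of dim probes, averaging the probes of a gene and leaving out arrays.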

Additional observations from a re-analysis of the deposited data

How the results depend on the processing

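No member was called by limma under quantile normalization, array median centring, a trended and robust variance, the replicate block, a filter on probes above the median level, the mean of a gene's probes, no size criterion or the loss of any array. Array weights called 2 members, Snord22 and Snora2b, and gave 10 higher at an unadjusted p under 0.05, against 17.5% of all genes. In that fit 2835 of the 19938 genes and 2 of the 54 members had an adjusted p under 0.05, without the size criterion. How many of all genes were called there with the size criterion was not counted. The difference of Scarna17 became 0.002. The cause was not tested, but the weights ran from 0.353 to 5.32. With the replicate block, 2 members were higher at an unadjusted p under 0.05 (7.2% of all genes) and 0 lower, and it changed no other call. Leaving out single arrays gave 0 to 11 members higher and 0 to 1 lower at that p, and 0 to 17 wholly above and 0 to 6 wholly below, the highest counts coming without scramble replicate 1 (above) and scramble replicate 3 (below). Without both arrays numbered 1, 6 were higher at that p and 18 lay wholly above, against 12.2% and 26.3% of all genes. In the other direction 0 were lower at that p and 0 lay wholly below, against 8.94% and 29.2% of all genes. Not every member was followed through each alternative. Among those that were, differences that turned sign on the loss of an array ran from -0.004 to 0.42 for Snora75, from -0.25 to 0.44 for Snord118 and from -0.44 to 0.10 for Snord47. Further members turned sign without scramble replicate 1, such as Snord95 (-0.07 to 0.33) and Snord14e (-0.18 to 0.13). The class median of Snord was -0.058 with all arrays and 0.092 without Pbcas4 shRNA replicate 2, 0.126 without scramble replicate 1 and 0.124 with array weights. That of Snora was -0.011 without Pbcas4 shRNA replicate 1 and -0.001 without scramble replicate 3, and that of Scarna was -0.039 with probes above the median level only, where fewer genes were tested. No member belongs to the Snord113 to Snord116 copies, so leaving them out changed nothing, and hosts were the same 53 by whole or partial overlap.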

Other observations

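Probes that pair a snoRNA symbol with another symbol were kept out of the comparison, and 24 of these 41 map to the Snord116 copies of the imprinted Prader-Willi region. The 24 held 7 different sets of values, between 10.85 and 11.54, and their mean was 11.39, 11.00 and 11.21 in Pbcas4 shRNA arrays and 11.29, 11.36 and 11.41 in scramble arrays. Their differences ran from -0.21 to -0.14, with overlap in all 24, and Pbcas4 shRNA replicate 2 was the low array. The probes of Snord14c and Snord14d, within Hspa8, were at 11.47, 10.24 and 11.03 in Pbcas4 shRNA arrays and 11.78, 10.76 and 11.10 in scramble arrays, the pattern also seen in Snord14e. Snord14a, which shares its probe with Rps13, was at 8.11, 7.55 and 7.98 in Pbcas4 shRNA arrays and 8.87, 7.75 and 8.05 in scramble arrays. Of the 41 probes, that of Snora65 with Rpl12 was the 1 without overlap, at 10.73, 10.91 and 10.93 in Pbcas4 shRNA arrays and 10.61, 10.35 and 10.48 in scramble arrays (difference 0.38). Among all genes 9.13% lay wholly above and 7.63% wholly below. The probe also carries the symbol Rpl12, so its signal need not be that of the snoRNA.

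Some H/ACA genes contain a microRNA, and their probes cannot tell the guide from the microRNA precursor. The probe of Snora34 and Mir1291 was at 9.32, 9.37 and 9.26 in Pbcas4 shRNA arrays and 9.59, 9.09 and 8.26 in scramble arrays (difference 0.34, with overlap). Scramble replicate 1 was its highest array, as for 35 of the 54 members, and scramble replicate 3 its lowest, as for 24 of them. That of Snora36b and Mir664 stayed between 4.93 and 4.94 in Pbcas4 shRNA arrays and between 4.87 and 4.99 in scramble arrays. Whether it can report a change at this low level was not tested. Probes of Snora19 with Mir3084-1 and Mir3084-2 were at 5.34, 5.24 and 5.01 in Pbcas4 shRNA arrays and 5.85, 5.04 and 5.43 in scramble arrays (difference -0.24, with overlap). The mature RNAs of Mir1291 and Mir664 are shown with the seed, bases 2 to 8, in capitals, from RefSeq on GRCm38.p6, and the 3 seeds differ.
mmu-miR-1291 (chr15:98519828-98519853, minus strand): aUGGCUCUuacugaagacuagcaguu
mmu-miR-664-5p (chr1:185242975-185242995, plus strand): cUGGCUGGggaaaaugacugg
mmu-miR-664-3p (chr1:185243012-185243033, plus strand): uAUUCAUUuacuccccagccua
The mean level of 291 microRNA genes was 6.15 to 6.28 in Pbcas4 shRNA arrays and 6.22 to 6.30 in scramble arrays.

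Of the 6 members with 2 probes, the probes of Snora21 disagreed, by up to 0.44 on a single array, and gave differences of -0.09 and 0.02. In 3 of the 6 the probes held identical values.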
